A study of Mus musculus with 6 samples.

Results

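Flk1-positive cells of the early mouse embryo were compared with whole wild-type (WT) embryos on Affymetrix mouse expression arrays, across all genes measured. The comparison takes 4 of the 6 arrays of the series, chosen by their genotype label alone: 2 are labelled Flk1 positive cell and 2 are labelled WT. Both groups are of the ICR strain and were taken at 8.5 days post coitum (dpc), when embryos have 3 to 4 somites and blood does not yet circulate. The other 2 arrays are of Flk1 KO embryos of the same strain and age, and they enter the estimate of the spread and a side-by-side account at the end. The design text describes dissected embryos proper and lists Flk1+/GFP embryos as a source, while the label of the cells states no allele. Any difference in genotype between the groups cannot be told apart from the cell selection. The labels do not say how the cells were isolated and handled, nor whether the arrays of a group stem from separate animals or litters. The p-values below reflect only the spread between these arrays, part of which may be technical.

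Flk1, encoded by Kdr, is the receptor through which vascular endothelial growth factor drives the birth, survival and sprouting of endothelial cells. At this stage it is found on the cells of the first vessels and of the endocardium, and on mesodermal progenitors that give rise to endothelium and to blood. Blood and endothelium share much of their transcription factor network, and the first red cells form next to the first vessels. A whole embryo pools these cells with neural plate, somites, heart muscle, gut and mesenchyme. In such bulk RNA, fewer cells of a type and less RNA per cell cannot be told apart.

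The arrays reported 45101 probe sets each, as a signal scaled to a trimmed mean of 500, and on the 4 arrays compared 55.3% to 57.7% of these exceeded background. Background was a signal of 57.8, set from olfactory and vomeronasal receptor probe sets, and the number of arrays limits the precision. Arrays of a group correlated at 0.982 and 0.984 on the log2 scale, against 0.915 to 0.918 between the groups. Kdr itself, which checks the label and is no finding, read 3309 and 3328 in the cells against 543.9 and 545.5 in WT embryos. All 12 endothelial markers were higher in the cells, with summed signals of 54424 and 54961 against 4001 and 3887. Blood transcripts were raised strongly as well: all 7 primitive erythroid markers were higher, with sums of 43085 and 44862 against 1000.3 and 489. Their median log2 difference was 3.91, next to 3.88 for the endothelial markers, and 3 of them lay below background in WT embryos. Of 4 tested platelet markers 2 were higher, Itga2b and Pf4, while Gp9 and Gp6 lay below background, and of 7 macrophage and white cell markers 4 were higher, with sums of 1288 and 1234 against 437 and 379.8. Markers of heart muscle (sums of 2022 and 1721 against 18976 and 19751), of neuroectoderm (358 and 181 against 8435 and 8233) and of yolk sac endoderm (7327 and 7147 against 16900.0 and 19108) were lower. The Actb control, a measure of RNA length by its 3' minus 5' log2 difference, stood at 0.26 and 0.29 in the cells against 0.57 and 0.55 in WT embryos, and that of Tfrc was 1.33 and 1.44 against 1.04 and 0.97. That of Gapdh was -0.32 and -0.36 against -0.32 and -0.32. The marker sums and the Actb and Tfrc values, which differed in opposite directions, moved with the group, and their part in the results below was not tested.

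Each gene is represented by its brightest probe set, and its values are written in a fixed order: Flk1-positive array 1 and 2 against WT array 1 and 2. Differences are Flk1-positive cells minus WT embryos on the log2(signal + 21.61) scale with the standard error from limma, 2 arrays per group; adding a constant compresses the differences of dim genes. Where the dimmer group was not above background, the difference is given as at least N-fold instead, counted from the background level. A gene was called at a limma adjusted p (Benjamini-Hochberg over all probe sets) at or below 0.05. Signals of different genes come from different probes and are not compared with each other. Genes are drawn from up to 3 rises and 3 falls of each list by size and from the 30 largest rises and falls of all genes. Not all of these are described, so absence from the text does not mean a small difference. Genes introduced as further ones were picked after their values were seen.

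More genes were lower than higher in the cells. Of 34621 probe sets tested, 3880 were higher (11.2%) and 4794 were lower (13.8%). Counted by gene, 1854 of 15205 were higher (12.2%) and 2654 were lower (17.5%), with a median difference of -0.08 over all genes. Of the called genes, 1108 higher and 1526 lower ones had a log2 difference that equals at least 2-fold, and 28 and 27 at least 16-fold. These counts take the log2 difference as it stands, also where the dimmer group lay below background. Among all called genes, 276 higher and 673 lower ones were of that kind. For those, the fold counted from background can be smaller: Mycl, with a log2 difference of -4.41, is given below as at least 8.69-fold lower. In all called genes the arrays of the cells and of the embryos did not overlap. With 2 arrays per group this goes with the call and adds no support to it. The share over all genes tested was not counted. Each of the 4 arrays mattered for the weaker calls. The probe set counts were 2091 higher and 2951 lower without Flk1-positive array 1, and 2201 and 2795 without Flk1-positive array 2. They were 2107 and 2171 without WT array 1, and 2164 and 2144 without WT array 2. Calls that held whichever array was left out numbered 905 higher and 1073 lower genes, and the genes named below are of this kind unless a loss is stated. Where a count of a gene list moves by more than 1.5 times in this way, the counts without Flk1-positive array 1, Flk1-positive array 2, WT array 1 and WT array 2 follow it in brackets, in that order. The lists are counted over the members that could be tested, and the shares of all genes, 12.2% and 17.5%, are the background for reading them.

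**Figure D1:**
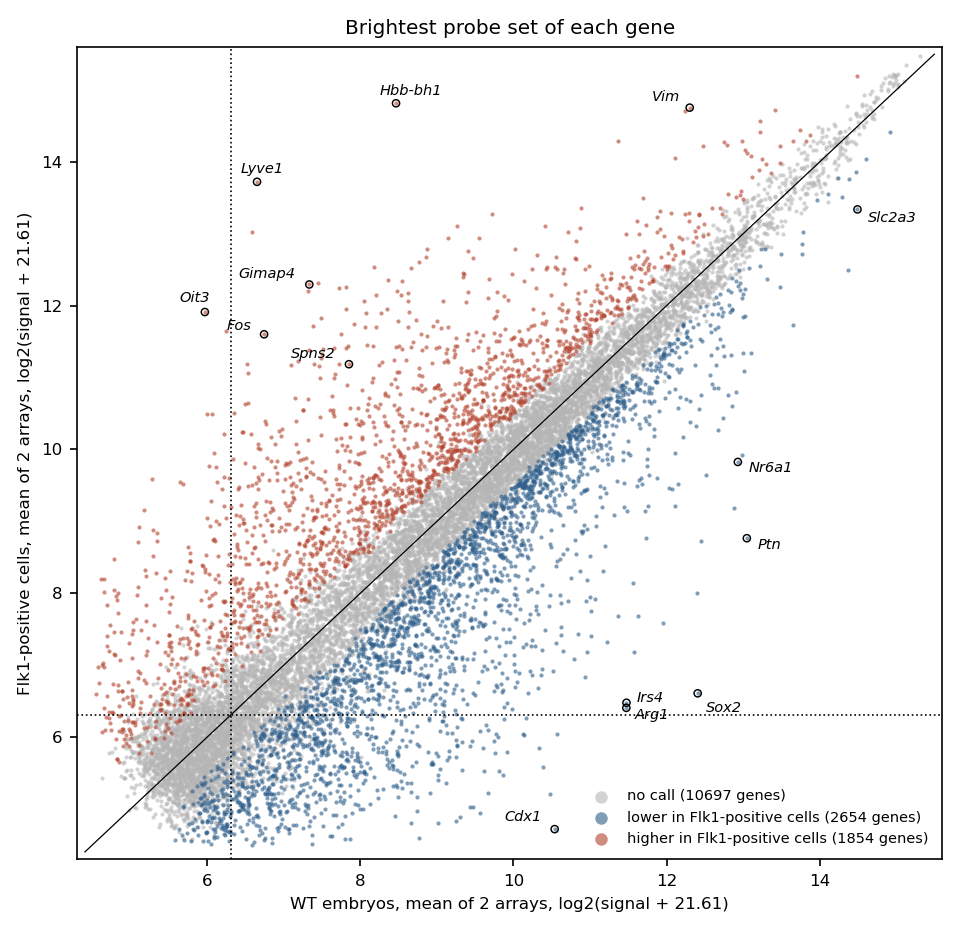
Mean log2(signal + 21.61) of each of 15205 genes in the 2 WT arrays (horizontal axis) and the 2 Flk1-positive arrays (vertical axis); red and blue points are genes called higher (1854) and lower (2654) in the cells, grey points have no call, dotted lines mark the background level and the solid line marks equal values. Lyve1, Oit3 and Hbb-bh1 lie far above the line and Sox2, Cdx1 and Ptn far below it, while most of the brightest genes lie close to it.

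**Figure D2:**
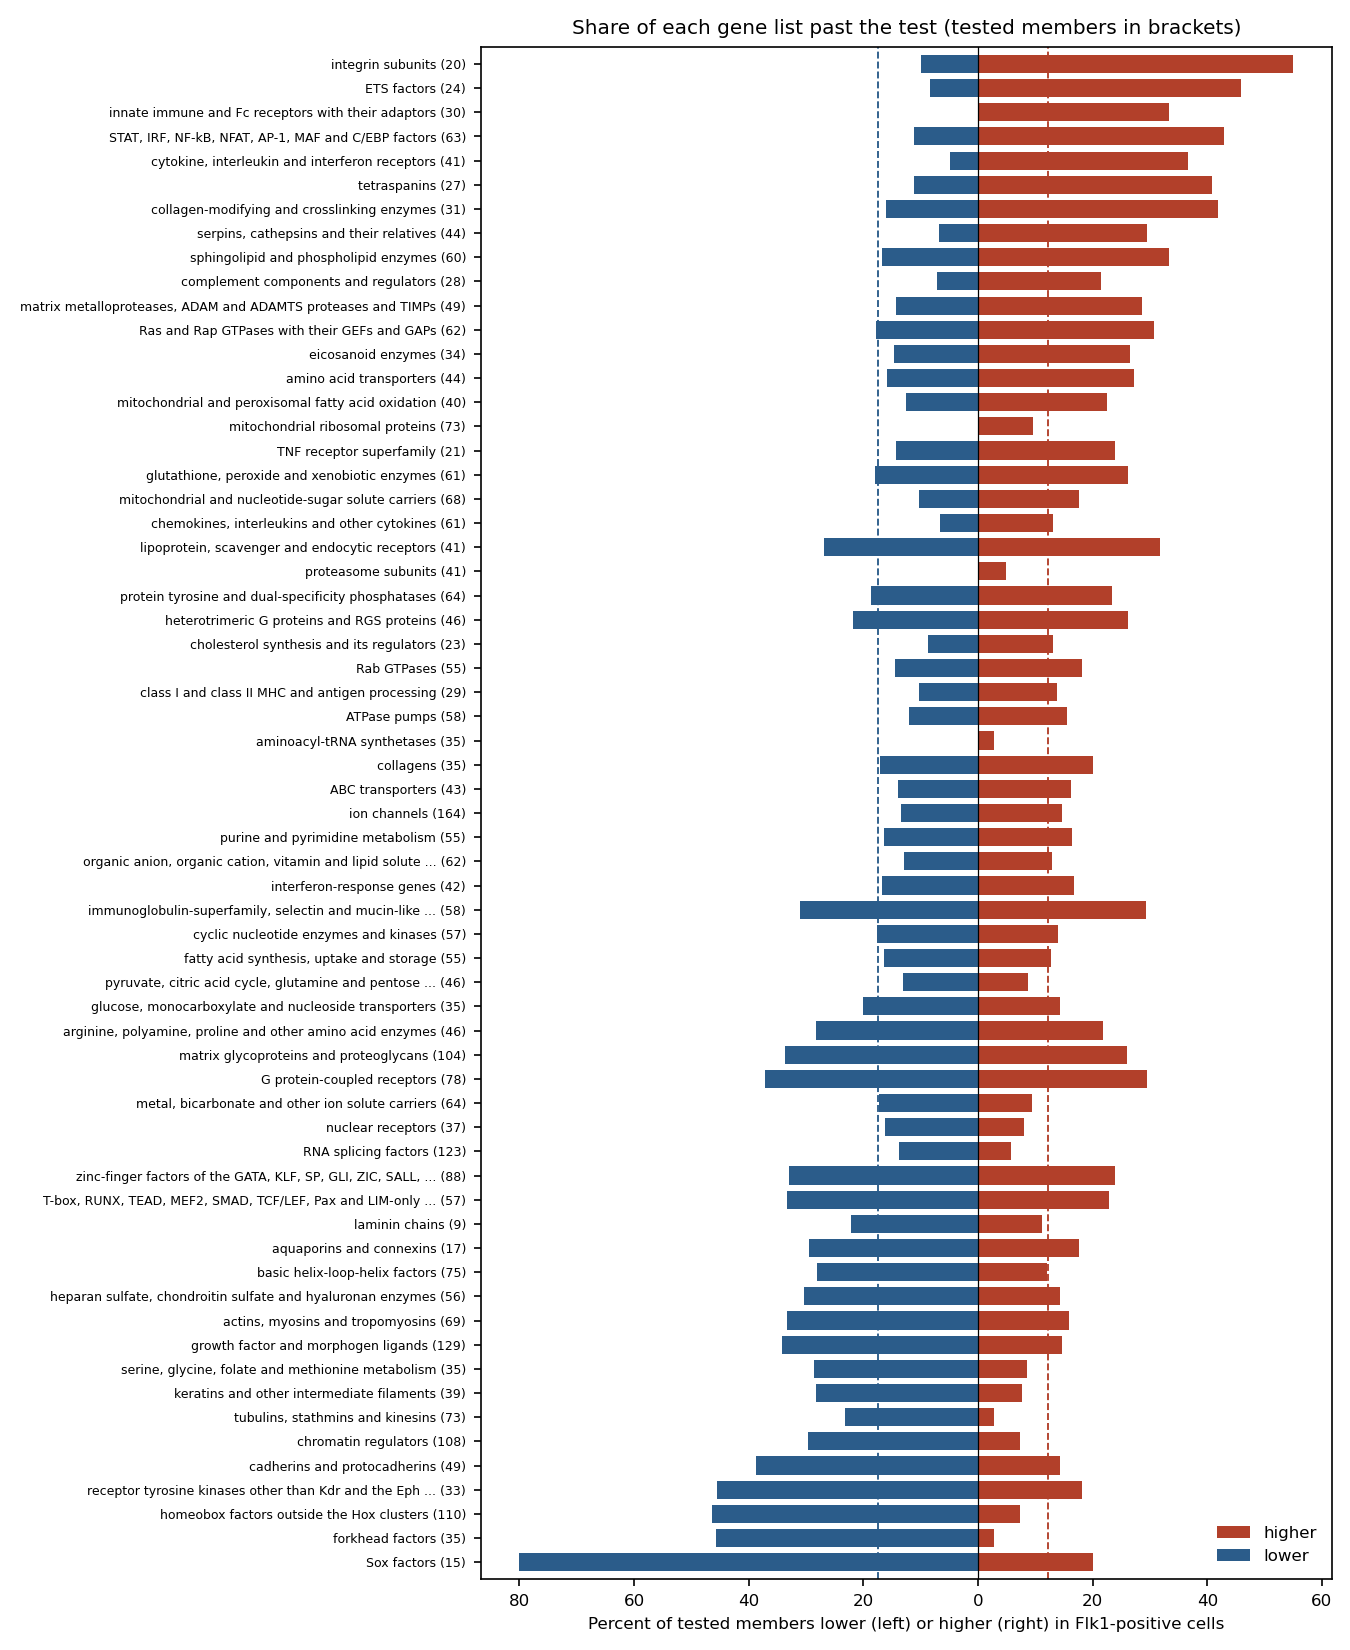
Share of the tested members of 63 gene lists that were higher (red, to the right) or lower (blue, to the left) in the cells than in WT embryos, in percent, with the number of tested members in brackets; dashed lines mark the shares over all genes, 12.2% higher and 17.5% lower. Integrins (55% higher) stand at one end and Sox factors (80% lower) at the other, and the proteasome, tRNA synthetase and mitochondrial ribosome lists have no bars to the left.

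The 30 largest rises hold genes of unlike function beside the vascular ones. Oit3, a secreted protein with a zona pellucida domain, read 3811 and 3854 against 16.2 and 82.02, at least 48.5-fold higher. Clec14a, a C-type lectin of endothelial cells, read 3231 and 3157 against 55.4 and 53.1, at least 40.5-fold higher. Gimap4, a GTPase best known from lymphocytes, read 5130.5 and 4885 against 124 and 157, a difference of 4.96 ± 0.30. The further relatives Gimap6 (at least 9.67-fold higher), Gimap1 (2.76 ± 0.17) and Gimap5 (at least 1.37-fold higher) were higher too. Fermt3, the kindlin of blood cells and platelets that activates integrins, read 3545 and 3675 against 161 and 155, a difference of 4.34 ± 0.12. Plek, a substrate of protein kinase C in platelets, read 1384 and 1461 against 40.4 and 44.1, at least 18.2-fold higher. Cav2, a coat protein of caveolae, read 1678 and 1501 against 58.1 and 86.02, a difference of 4.12 ± 0.41. Tmem204, a membrane protein of endothelium, read 2328 and 2254 against 129.6 and 101, a difference of 4.08 ± 0.23. In each case both arrays of the cells lay above both arrays of the embryos, as in every gene called higher and as the naming rule required (limma adjusted p of 0.00959 or below). Among the falls, Irs4, a docking protein of insulin signalling, read 58.1 and 68.4 against 2638 and 3023, a difference of -5.07 ± 0.17. Crabp2, which carries retinoic acid to its receptors, read 219.9 and 252 against 5519.7 and 5248, a difference of -4.39 ± 0.24. Eras, a constitutively active Ras of pluripotent cells, read 23.2 and 8.61 against 1372 and 1436, at least 17.96-fold lower. The membrane protein gene Ildr2 read 66.9 and 26.8 against 1143 and 1066, at least 14.2-fold lower. Shisa2, whose product holds back Wnt and FGF receptors, read 138 and 111 against 2006 and 1933, a difference of -3.78 ± 0.22 (limma adjusted p of 0.000823 or below for these 5 genes).

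Promoters are shown for the first 3 of the 30 largest rises that had a window in the RefSeq table, globin genes aside, and for Sox2, the first of the largest falls, as examples from both ends of the comparison. ETS and GATA factors are known regulators of endothelial and blood genes. The promoters are the 250 bases before the RefSeq start in GRCm38.p6, read 5′ to 3′ on the strand of the gene, with capitals for matches on either strand to AGGAAG, a core that ETS factors bind, or to AGATAA, a core that GATA factors bind. The windows are chr12:58269259-58269508, minus strand for Clec14a, chr6:48684328-48684577, plus strand for Gimap4, chr2:14229164-14229413, plus strand for Mrc1 and chr3:34649745-34649994, plus strand for Sox2.
Clec14a: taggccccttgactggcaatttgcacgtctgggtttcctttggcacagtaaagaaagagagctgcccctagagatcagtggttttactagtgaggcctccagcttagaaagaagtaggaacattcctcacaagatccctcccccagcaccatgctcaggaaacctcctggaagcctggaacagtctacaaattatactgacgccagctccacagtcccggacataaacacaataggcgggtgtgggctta
Gimap4: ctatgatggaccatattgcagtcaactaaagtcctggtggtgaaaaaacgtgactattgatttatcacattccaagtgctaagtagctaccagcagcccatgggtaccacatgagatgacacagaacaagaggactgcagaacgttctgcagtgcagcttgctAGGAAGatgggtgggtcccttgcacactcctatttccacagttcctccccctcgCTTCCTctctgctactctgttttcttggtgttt
Mrc1: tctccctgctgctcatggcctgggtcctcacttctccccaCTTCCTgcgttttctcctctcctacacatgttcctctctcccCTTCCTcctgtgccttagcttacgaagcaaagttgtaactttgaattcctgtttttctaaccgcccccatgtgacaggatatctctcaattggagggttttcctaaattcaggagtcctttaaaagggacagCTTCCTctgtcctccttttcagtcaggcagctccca
Sox2: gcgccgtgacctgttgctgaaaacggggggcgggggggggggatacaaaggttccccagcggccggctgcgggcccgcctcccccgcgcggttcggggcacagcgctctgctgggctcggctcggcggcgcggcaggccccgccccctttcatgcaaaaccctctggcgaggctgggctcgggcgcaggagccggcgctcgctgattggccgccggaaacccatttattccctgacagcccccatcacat
The window of Gimap4 holds 2 matches to AGGAAG and that of Mrc1 holds 3, while those of Clec14a and Sox2 hold none. None of the 4 holds AGATAA. Other forms of the ETS and GATA motifs were not searched for. The Sox2 window is 72% G and C, against 47.6% to 50.8% for the other windows. Of the 30 largest rises, 18 had a window in the RefSeq table, and 9 of these hold AGGAAG. Of the 30 largest falls, 20 had a window and 3 hold it. Only the first window of a gene was counted there. Over all 32851 windows of the table, which belong to 27025 genes, the share is 29.5%. AGATAA is in 1 window of the rises and in 2 of the falls, against 9.99% of all windows. The motifs were chosen after the values were seen, and a match describes letters and shows no binding.

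Receptor tyrosine kinases fell more often than they rose: 6 of 33 tested members were higher and 15 were lower, with a list median of -0.42 (-1.03 to -0.37 over the settings tried). The rises were the angiopoietin receptors and the other VEGF receptors, with 2 receptors of blood cells. Tie1, the orphan partner of the angiopoietin receptor, read 2227 and 2555 against 105 and 146, a difference of 4.05 ± 0.19. Tek, the angiopoietin receptor itself, read 7965 and 7693 against 739 and 723, a difference of 3.38 ± 0.20. Of the further members, Flt1, which binds VEGF as a decoy, read 1422 and 1326 against 124 and 194, a difference of 2.98 ± 0.28. The arrays of the groups did not overlap for any of these 3, as in every called gene. The further members Kit, the stem cell factor receptor, and Csf1r, the receptor that defines macrophages, rose less. Kit read 2241 and 2164 against 904 and 817, a difference of 1.34 ± 0.13. Csf1r read 384 and 324 against 121 and 80.99, a difference of 1.63 ± 0.20, again without overlap. Among the falls, the collagen receptor Ddr1 of epithelia read 216 and 134 against 3876 and 3999, a difference of -4.36 ± 0.51. Met, the receptor for hepatocyte growth factor, read 17.7 and 13.7 against 491 and 427, at least 6.04-fold lower. The neuregulin receptor Erbb3 read 30.95 and 62.2 against 575 and 557, at least 7.4-fold lower (limma adjusted p of 0.00451 or below for the genes of this paragraph).

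G protein-coupled receptors moved in both directions: 23 of 78 tested members were higher and 29 were lower (21, 22, 19 and 20 with each array left out in turn), with a median of -0.14 (-0.65 to 0 over the settings tried). Adgrl4, an adhesion receptor of endothelium, read 1398 and 1434 against 42.3 and 47.9, at least 18.1-fold higher. Adgrf5, another adhesion receptor, read 3190.2 and 3031 against 199 and 189, a difference of 3.86 ± 0.13. Calcrl, the receptor for adrenomedullin, read 4893 and 4543 against 349 and 322, a difference of 3.73 ± 0.17. Several receptor families were split by member, and those that follow are further genes. The sphingosine 1-phosphate receptor S1pr1, which stabilises vessels, read 1389.9 and 1477 against 149 and 214, a difference of 2.86 ± 0.20. Its relative S1pr3 read 106 and 108 against 556 and 579, a difference of -2.19 ± 0.13. S1pr2 read 365 and 281 against 820.1 and 704, a difference of -1.19 ± 0.20 (no longer called without Flk1-positive array 2 or WT array 1). S1pr4 read 118 and 102 against 91.4 and 132, a difference of 0.00 ± 0.19 with no call. In the lysophosphatidic acid family Lpar6 was higher (1.19 ± 0.15), while Lpar1 (-1.48 ± 0.15), Lpar2 (-1.81 ± 0.23) and Lpar3 (at least 2.92-fold lower) were lower. Frizzled receptors bind Wnt ligands, and Fzd1, Fzd2, Fzd3, Fzd5, Fzd6, Fzd7 and Fzd9 were called lower (Fzd6 no longer without any 1 of the 4 arrays compared, and Fzd9 no longer without WT array 1), led by Fzd2 (747 and 681 against 4336 and 4743, a difference of -2.63 ± 0.14). Fzd4, known from retinal and brain vessels, was the Frizzled with the highest difference, at 1196 and 964 against 436 and 572, a difference of 1.07 ± 0.32 with no call (limma adjusted p = 0.0625). Ackr3, a scavenging receptor for the chemokine CXCL12, read 131 and 129.9 against 919 and 1296, a difference of -2.87 ± 0.28.

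Receptors of immune signalling rose in Flk1-positive cells more often than genes at large. For cytokine, interleukin and interferon receptors, 15 of 41 tested members were higher (9, 10, 11 and 11 with each array left out in turn) and 2 were lower, with a median of 0.50 (0.21 to 0.77 over the settings tried). Il4ra, the shared receptor chain for IL-4 and IL-13, read 425 and 378 against 35.4 and 7.32, at least 5.32-fold higher. Csf2rb, the common beta chain for IL-3, IL-5 and GM-CSF, read 320.2 and 369 against 27.5 and 9.43, at least 4.6-fold higher. Among further members, Ifngr1 (1.70 ± 0.15), Lifr (1.57 ± 0.15) and the erythropoietin receptor Epor (1.35 ± 0.19) were higher. The falls were Cntfr (-1.69 ± 0.23), which pairs with gp130 in neurons, and Il17rd (-1.46 ± 0.17), an inhibitor of FGF signalling. For innate immune and Fc receptors with their adaptors, 10 of 30 tested members were higher and 0 were lower, with a median of 0.56 (0.33 to 0.83 over the settings tried). Tlr4, which senses bacterial lipopolysaccharide, read 424 and 369.8 against 8.52 and 17.05, at least 5.26-fold higher. Further members were its co-receptor Ly96 (at least 1.96-fold higher) and its adaptor Myd88 (1.41 ± 0.15), so that receptor, co-receptor and adaptor were all higher. Fcgrt, the neonatal Fc receptor that recycles IgG and albumin, read 464 and 475 against 61.4 and 30.5, at least 6.19-fold higher. In the TNF receptor superfamily, 5 of 21 tested members were higher (4, 2, 3 and 5 with each array left out in turn) and 3 were lower: Tnfrsf13b was at least 1.61-fold higher, Cd40 differed by 1.88 ± 0.21, and Tnfrsf19, a target of Wnt signalling, by -3.89 ± 0.19. The summed signal of white cell markers given above was also higher in the cells, and its part in these results was not tested.

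Uptake receptors moved in both directions. For lipoprotein, scavenger and endocytic receptors, 13 of 41 tested members were higher and 11 were lower (7 without any 1 array), with a median of 0.10 (-0.02 to 0.19 over the settings tried). Lyve1, which binds hyaluronan, had the largest rise of all genes and read 12892 and 14156 against 90.9 and 67.9, a difference of 7.08 ± 0.17. Mrc1, the mannose receptor, read 4639 and 4717 against 134 and 140.4, a difference of 4.89 ± 0.13. Stab2, a hyaluronan and scavenger receptor of sinusoidal endothelium, read 2052 and 2196 against 95.8 and 50.6, a difference of 4.54 ± 0.30. The further scavenger receptors Stab1 (3.83 ± 0.21) and Scarf1 (at least 8.79-fold higher) were higher, as was Gpihbp1 of the fatty acid list, which holds lipoprotein lipase on capillaries (at least 2.98-fold higher). Among the falls, Lrp2, the megalin of absorptive epithelia, stood at 110.4 and 67.7 against 656 and 788, a difference of -2.77 ± 0.23. The further genes Cubn and Amn, the chains of the receptor that works with megalin, were -1.70 ± 0.14 and -1.52 ± 0.14, and Sorl1, a sorting receptor, differed by -2.59 ± 0.19 (limma adjusted p of 0.00366 or below in this group).

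Adhesion receptors moved in both directions. For cadherins and protocadherins, 7 of 49 tested members were higher and 19 were lower, with a median of -0.49 (-1.22 to 0 over the settings tried). Cdh5, the VE-cadherin of endothelial junctions, read 3487 and 3192 against 183 and 113, a difference of 4.34 ± 0.22, and the protocadherins Pcdh12 and Pcdh17 were higher, Pcdh12 by 4.15 ± 0.16 and Pcdh17 at least 4.21-fold higher. Cdh1, the cadherin of epithelia, read 122.9 and 122.96 against 3158 and 2916, a difference of -4.40 ± 0.24, and the neural and mesenchymal cadherins Cdh2 (-1.87 ± 0.17) and Cdh11 (-2.27 ± 0.17), further members, were lower as well. For immunoglobulin-superfamily, selectin and mucin-like receptors, 17 of 58 tested members were higher (12, 12, 11 and 10 with each array left out in turn) and 18 were lower. Icam2 read 5772 and 4054 against 178 and 202, a difference of 4.53 ± 0.21. Cxadr, a junction protein of epithelia and heart muscle, read 99.9 and 86.2 against 1909.5 and 1966, a difference of -4.10 ± 0.18. Most tetraspanins that changed were higher: 11 of 27 tested members were higher (8, 7, 7 and 7 with each array left out in turn) and 3 were lower (1, 2, 1 and 2 with each array left out in turn), with a median of 0.46. Tspan8 read 484 and 531 against 41.9 and 43.1, at least 6.65-fold higher. Tspan18 read 1388 and 1448 against 391 and 300.1, a difference of 1.98 ± 0.22. Among nuclear receptors, 3 of 37 tested members were higher and 6 were lower, and the shares stayed at or below those of all genes. Nr5a2, a receptor known from endoderm and pluripotent cells, read 497 and 553 against 70.3 and 53.8, a difference of 2.71 ± 0.15, whereas the germ cell nuclear factor Nr6a1 read 871 and 902 against 8352 and 7275, a difference of -3.11 ± 0.13. Nr2f1 read 124 and 101 against 878 and 763, a difference of -2.65 ± 0.17.

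**Figure D3:**
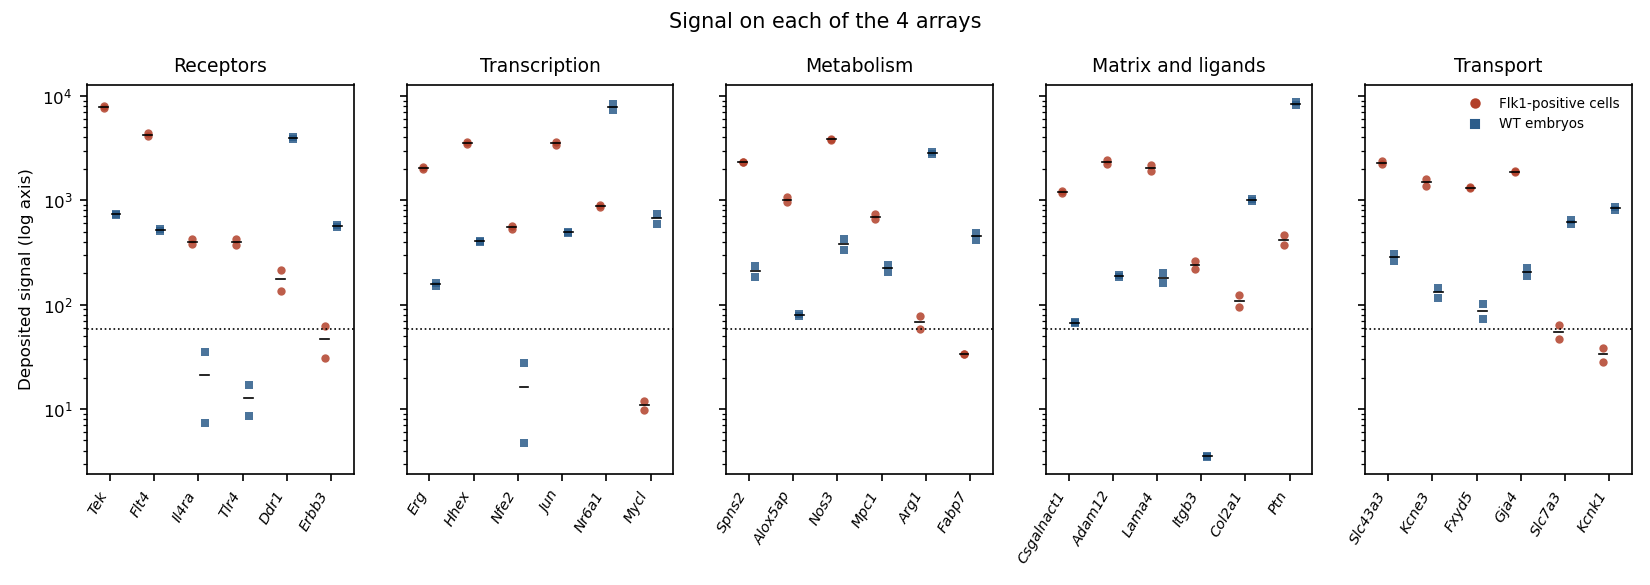
Deposited signal (log axis) of 30 genes on the 2 arrays of Flk1-positive cells (red circles) and the 2 arrays of WT embryos (blue squares), in 5 panels by function; short lines are group means and the dotted line is the background signal of 57.8. In each gene the arrays of the groups are separate, as in every called gene. The group means of Il4ra, Tlr4, Nfe2 and Itgb3 lie below background in WT embryos, and those of Erbb3, Mycl, Fabp7, Slc7a3 and Kcnk1 in the cells.

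Transcription factor families differed in direction, and some were split within. Among Sox factors, 3 of 15 tested members were higher and 12 were lower, so that every tested member was called, and the list median was -2.06 (-2.09 to -0.99 over the settings tried). The rises were the SoxF genes, which act in endothelium: Sox18 read 5813 and 5959.7 against 388 and 379.9, a difference of 3.86 ± 0.19. Sox7 read 2695 and 2829 against 362 and 324, a difference of 2.93 ± 0.13. Sox17 read 4659.7 and 5039 against 1232 and 1238, a difference of 1.95 ± 0.40 (no longer called without any 1 of the 4 arrays compared). The neural Sox1 read 36.1 and 15.1 against 989 and 777, at least 11.3-fold lower. Its relative Sox3 read 109 and 120.2 against 1758 and 1740.2, a difference of -3.70 ± 0.13. Of the ETS factors, 11 of 24 tested members were higher and 2 were lower (2, 2, 1 and 1 with each array left out in turn), with a median of 0.38 (0.25 to 0.65 over the settings tried); 45.8% of members rose, against 12.2% of all genes. Erg read 1975 and 2071 against 161 and 152, a difference of 3.52 ± 0.14. Fli1 read 5957 and 7007 against 791 and 597, a difference of 3.19 ± 0.19. Elk3 read 5590.5 and 5651 against 628 and 623, a difference of 3.12 ± 0.19, and these 3 are regulators of endothelial genes. Of further members, Etv2, which starts the endothelial and blood programme, read 2629 and 2841 against 555 and 454, a difference of 2.40 ± 0.15. Spi1, the master factor of myeloid cells, read 248 and 272 against 58.2 and 69.5, a difference of 1.72 ± 0.14. The members that fell were targets of FGF signalling, Etv4 (at least 4.79-fold lower) and Etv5 (-1.15 ± 0.20, no longer called without Flk1-positive array 1, WT array 1 or WT array 2).

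Homeobox and forkhead factors, many of which pattern the body axis, the brain and the gut, fell more often than genes at large. For homeobox factors outside the Hox clusters, 8 of 110 tested members were higher (5, 6, 5 and 6 with each array left out in turn) and 51 were lower, with a median of -0.82 (-1.47 to -0.38 over the settings tried). The rises were few. Hhex, a factor of blood vessel and liver progenitors, read 3444 and 3644 against 408 and 399, a difference of 3.07 ± 0.12, and Lhx6 (at least 3.23-fold higher), Zeb1 (1.43 ± 0.20) and Hlx (1.22 ± 0.16, a further member) were higher. The posterior gene Cdx1 read 4.75 and 4.62 against 1611 and 1333, at least 18.7-fold lower, and the forebrain genes Otx2 and Hesx1 were at least 10.3-fold lower and at least 11.04-fold lower. Of forkhead factors, 1 of 35 tested members was higher (0 without any 1 array) and 16 were lower (11, 11, 9 and 8 with each array left out in turn), with a median of -0.43 (-0.84 to -0.34 over the settings tried). The member that rose was Foxo1, needed for vessel formation, at 744 and 737 against 418 and 389, a difference of 0.84 ± 0.14 (no longer called without any 1 of the 4 arrays compared), and without either Flk1 KO array 2 members were called higher. Foxa1 and Foxa2 of the endoderm were at least 14.5-fold lower and at least 7.76-fold lower, the latter a further member, and Foxd4 was at least 11.7-fold lower. The further members Foxc1 and Foxc2 act in mesoderm and vessels. Foxc1 read 513 and 439 against 1007 and 1138, a difference of -1.14 ± 0.15. Foxc2 read 1269 and 1359 against 1915 and 1982, a difference of -0.56 ± 0.13 (no longer called without any 1 of the 4 arrays compared).

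In the basic helix-loop-helix, T-box to LIM-only and zinc-finger lists falls outnumbered rises, as they did over all genes. Falls made up 28%, 33.3% and 33% of these lists in that order, against 17.5% of all genes. Rises made up 12%, 22.8% and 23.9%, against 12.2% of all genes. Of basic helix-loop-helix factors, 9 of 75 tested members were higher and 21 were lower (16, 15, 12 and 15 with each array left out in turn), with a median of -0.16 (-0.22 to -0.03 over the settings tried). Lyl1 read 2715 and 2689 against 212 and 151, a difference of 3.76 ± 0.40. Tal1 read 2683 and 2695 against 414 and 295, a difference of 2.87 ± 0.19, and both factors act in blood formation. Tfec, a relative of the melanocyte factor Mitf, read 869 and 966 against 61.7 and 56.6, a difference of 3.54 ± 0.40, and the hypoxia factor Epas1 (2.003 ± 0.21, a further member) was higher. Mycl was at least 8.69-fold lower, and Hes3 was at least 3.3-fold lower (no longer called without WT array 1). For the T-box, RUNX, MEF2, SMAD, Pax and LIM-only list, 13 of 57 tested members were higher and 19 were lower (13, 12, 15 and 12 with each array left out in turn). Runx1, needed for definitive blood stem cells, read 283 and 311 against 2.57 and 33.2, at least 4.01-fold higher. Lmo2, a LIM-only factor, read 5144 and 5417 against 882 and 729, a difference of 2.69 ± 0.18. The muscle cofactor Vgll3 was at least 7.93-fold lower. For zinc-finger factors, 21 of 88 tested members were higher and 29 were lower (23, 23, 18 and 21 with each array left out in turn), with a median of -0.31 (-0.39 to -0.14 over the settings tried). Klf1 of red cells read 757 and 699.6 against 27.9 and 28.9, at least 9.44-fold higher. Ikzf1 of lymphoid and erythroid cells read 556 and 383 against 9.84 and 16.5, at least 6.09-fold higher. Bcl6b, an endothelial repressor and a further member, read 1163 and 1418 against 94.1 and 79.9, a difference of 3.59 ± 0.16. The Wnt and FGF targets Sp8 and Sp5 were at least 9.52-fold lower and at least 12.2-fold lower. The erythroid marker sums given above were also higher in the cells, and their part in the rises of Klf1, Tal1 and Lyl1 was not tested.

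Factors that answer to signals formed the list with the most rises among the larger families. For STAT, IRF, NF-kB, NFAT, AP-1, MAF and C/EBP factors, 27 of 63 tested members were higher (20, 20, 21 and 17 with each array left out in turn) and 7 were lower (4, 6, 4 and 4 with each array left out in turn), with a median of 0.50. Immediate early genes of the AP-1 complex, whose transcripts appear within minutes of many stimuli, made up a part of them. Fos is among the 30 largest rises, and the further members Jun, Fosb, Junb and Atf3 rose with it. Jun read 3414 and 3607 against 493 and 491, a difference of 2.78 ± 0.27. Fosb read 276 and 316 against 24.7 and 22.98, at least 3.99-fold higher. Junb read 584 and 557 against 95.7 and 60.03, a difference of 2.60 ± 0.22. The stress-induced Atf3 read 1254 and 1329 against 232 and 225, a difference of 2.39 ± 0.14. The dual-specificity phosphatases Dusp1 (2.79 ± 0.14) and Dusp2 (2.92 ± 0.18), which switch off MAP kinases, rose beside them. Other members act in slower programmes: Nfe2, of megakaryocytes and red cells, read 571 and 532 against 27.8 and 4.69, at least 7.21-fold higher. Cebpd read 1038 and 1073 against 105 and 88.6, a difference of 3.19 ± 0.14. The further members Stat3 (2.39 ± 0.13), Stat4 (at least 1.58-fold higher), Stat5a (1.81 ± 0.21), Maf (2.41 ± 0.17) and Nfatc1 (2.15 ± 0.18) were higher as well. Nfe2l3 (at least 1.41-fold lower) and Nfatc4 (-1.51 ± 0.16) were lower.

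Chromatin regulators were more often lower: 8 of 108 tested members were higher (4 without any 1 array) and 32 were lower (16, 14, 12 and 14 with each array left out in turn), with a median of -0.34. Smyd1, a histone methyltransferase of muscle, was at least 6.52-fold lower, and Smarcd3, the heart subunit of the BAF remodeller, read 98.7 and 103 against 788 and 785, a difference of -2.72 ± 0.15. Mbd2, a reader of methylated DNA, read 1913 and 1565 against 308 and 385, a difference of 2.26 ± 0.19. The acetyltransferase Kat2b read 605 and 577 against 161 and 155, a difference of 1.77 ± 0.12. Hdac7, a deacetylase of endothelial cells, read 1202 and 1333 against 337 and 402, a difference of 1.72 ± 0.16. The DNA methyltransferase genes Dnmt1 and Dnmt3a had no call, with Dnmt1 at 4131 and 4123 against 3838 and 3934 and Dnmt3a at 1201 and 1207 against 1026 and 1054.

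**Figure D4:**
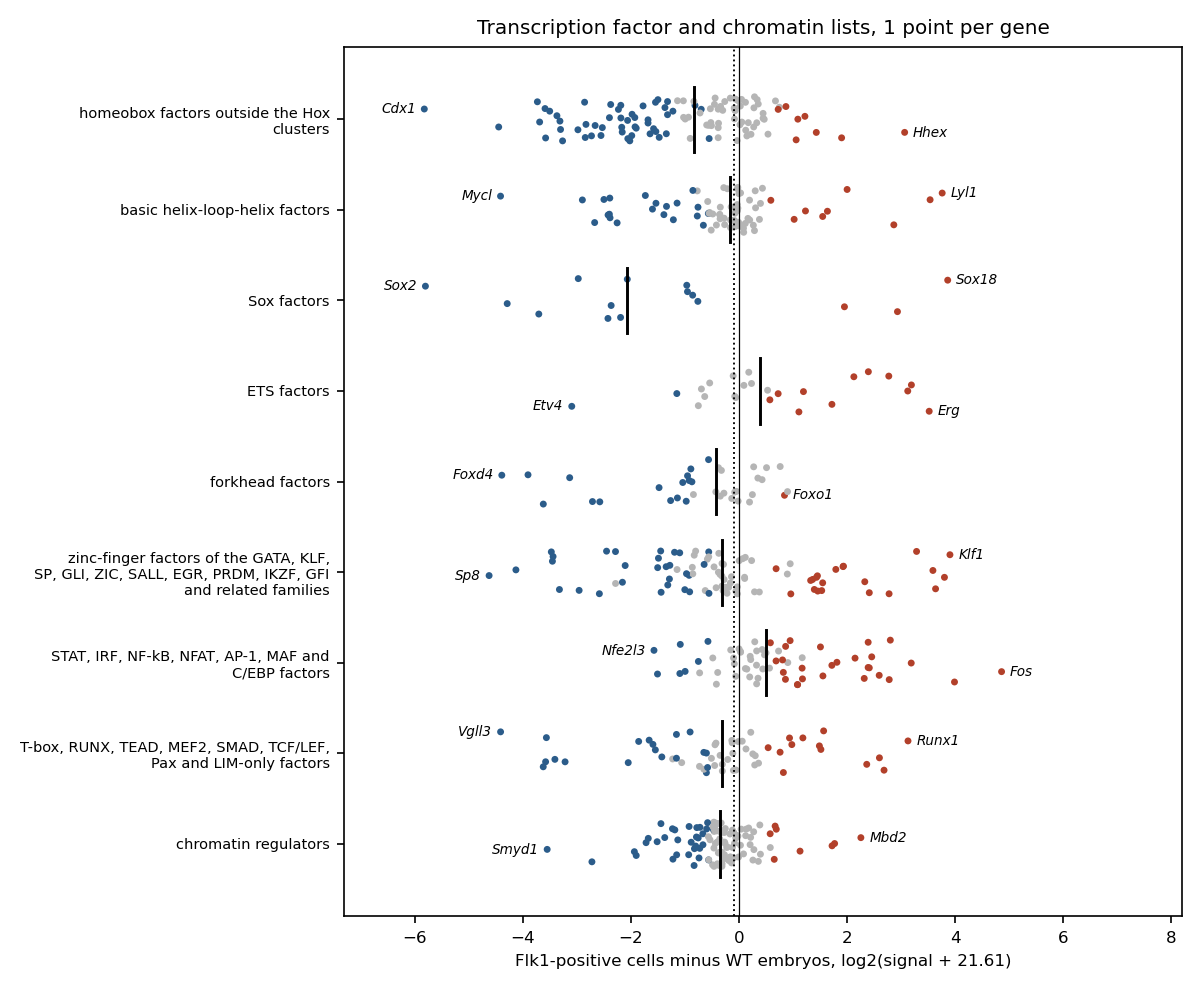
Difference between Flk1-positive cells and WT embryos, log2(signal + 21.61), for each tested gene of 9 transcription factor and chromatin lists; red and blue points were called higher and lower, grey points have no call, black bars are list medians and the dotted line is the median of all genes, -0.08. The medians of the ETS and the STAT to C/EBP lists lie right of the dotted line and those of the Sox, homeobox and forkhead lists lie left of it.

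Among the metabolic lists, sphingolipid and phospholipid enzymes had the largest share of rises: 20 of 60 tested members were higher (13, 11, 12 and 11 with each array left out in turn) and 10 were lower (3, 6, 3 and 3 with each array left out in turn), with a median of 0.22. Sphingosine 1-phosphate is a lipid signal that cells export and that endothelial cells read through S1pr1. Spns2, its exporter in endothelium, read 2310.3 and 2306 against 237 and 184, a difference of 3.34 ± 0.20. Mfsd2b, its exporter in red cells and platelets, read 292 and 249.9 against 35.2 and 26.6, at least 3.68-fold higher. Acer2, a ceramidase that makes sphingosine, read 1209 and 1383 against 214 and 189, a difference of 2.56 ± 0.14, though a dimmer probe set of the gene was called lower. The kinase Sphk2 that phosphorylates sphingosine had no call at 459.9 and 452 against 484 and 504, nor had its dimmer relative Sphk1. The lyase that degrades the lipid, the further member Sgpl1, read 502 and 527 against 932 and 901, a difference of -0.81 ± 0.12 (no longer called without Flk1-positive array 1, WT array 1 or WT array 2). Its phosphatases were split, with the further member Sgpp1 at 1.43 ± 0.14 and Sgpp2 at least 4.87-fold lower. Of this pathway, the exporters Spns2 and Mfsd2b, the receptor S1pr1, the phosphatase Sgpp1 and the brightest probe set of Acer2 were higher in the cells. The receptors S1pr2 and S1pr3, the lyase Sgpl1 and the phosphatase Sgpp2 were lower, and neither kinase gene was called.

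Eicosanoids are signals made from arachidonic acid. In that list, 9 of 34 tested members were higher (4, 7, 5 and 6 with each array left out in turn) and 5 were lower, with a median of 0.20 (0.07 to 0.25 over the settings tried). Alox5ap, which hands arachidonic acid to 5-lipoxygenase, read 964 and 1071 against 77.6 and 81.3, a difference of 3.36 ± 0.18. Hpgd, which inactivates prostaglandins, read 263 and 318 against 41.2 and 4.11, at least 3.92-fold higher. The further member Pla2g4a, a phospholipase that releases arachidonic acid, read 397 and 415 against 152 and 126, a difference of 1.42 ± 0.14. Ltc4s, the leukotriene C4 synthase, was at least 2.89-fold higher (no longer called without Flk1-positive array 1, Flk1-positive array 2 or WT array 1). Mgst1 and the carbonyl reductase Cbr3 fell, Mgst1 at 216 and 248 against 1497 and 1572, a difference of -2.62 ± 0.15 and Cbr3 at least 1.64-fold lower. The cyclooxygenase Ptgs2 was below background in both groups.

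Arginine is the substrate of nitric oxide synthase and of arginase, and the genes of these enzymes moved in opposite directions. Nos3, the endothelial nitric oxide synthase, read 3849 and 3814 against 427 and 332, a difference of 3.27 ± 0.19. Arg1, the arginase of the urea cycle, read 77.9 and 57.9 against 2766 and 2892, a difference of -5.002 ± 0.16, among the 30 largest falls of all genes, and the mitochondrial Arg2 had no call. Ddah1, which removes natural inhibitors of nitric oxide synthase, is a further member at 0.99 ± 0.14. In the list of arginine, polyamine, proline and other amino acid enzymes, 10 of 46 tested members were higher (4, 5, 4 and 4 with each array left out in turn) and 13 were lower (7, 6, 6 and 6 with each array left out in turn), with a median of -0.08 (-0.23 to 0 over the settings tried). The polyamine acetylase Sat1 (2.07 ± 0.15) and the proline dehydrogenase Prodh (1.32 ± 0.13) were higher. Maob and Kynu were at least 3.38-fold lower and at least 1.36-fold lower.

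Central carbon metabolism showed few calls. For pyruvate, citric acid cycle, glutamine and pentose phosphate enzymes, 4 of 46 tested members were higher (4, 2, 2 and 2 with each array left out in turn) and 6 were lower (2, 1, 2 and 1 with each array left out in turn), with a median of 0 (-0.02 to 0.04 over the settings tried), and both shares lay below those of all genes. Mpc1, a subunit of the carrier that brings pyruvate into mitochondria, read 732 and 664 against 241 and 204, a difference of 1.56 ± 0.15. Gpt2, the mitochondrial alanine transaminase, read 165 and 168 against 472 and 541, a difference of -1.49 ± 0.14. Citrate synthase Cs had no call at 5389.9 and 5653 against 4422 and 4778, nor did the lactate dehydrogenase gene Ldha at 25589 and 26581 against 27399 and 26261. Cholesterol synthesis was also close to the embryo level: 3 of 23 tested members were higher (0, 1, 0 and 0 with each array left out in turn) and 2 were lower (0 without any 1 array), with a median of 0.12, and 1 member was called lower without either Flk1 KO array. For purine and pyrimidine metabolism, 9 of 55 tested members were higher (4, 6, 4 and 4 with each array left out in turn) and 9 were lower (4, 5, 3 and 3 with each array left out in turn), with a median of -0.21 (-0.23 to -0.05 over the settings tried). Entpd1, the CD39 enzyme that breaks down extracellular ATP, read 624 and 565 against 112 and 73.9, a difference of 2.45 ± 0.23. The AMP deaminase of red cells Ampd3 read 316 and 255 against 32.3 and 70.3, at least 3.85-fold higher. Ak4 read 938 and 996 against 2666 and 3114, a difference of -1.55 ± 0.15. For serine, glycine, folate and methionine metabolism, 3 of 35 tested members were higher (1, 0, 0 and 0 with each array left out in turn) and 10 were lower, and 1 was called higher without either Flk1 KO array. The folate receptor Folr1 and the folate transporter Slc46a1 were both lower (-1.78 ± 0.13 and -1.48 ± 0.14, the latter a further member), as were Cth (-1.79 ± 0.16) and the further member Gldc (-1.50 ± 0.15), of cysteine and glycine metabolism.

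Genes of lipid handling moved in both directions, and the fatty acid synthesis, uptake and storage list did so about as often as genes at large. Its shares were 12.7% higher and 16.4% lower, against 12.2% and 17.5% of all genes. Those of the fatty acid oxidation list were 22.5% and 12.5%. For fatty acid synthesis, uptake and storage, 7 of 55 tested members were higher (5, 4, 5 and 5 with each array left out in turn) and 9 were lower (6, 7, 4 and 4 with each array left out in turn), with a median of -0.20 (-0.25 to -0.07 over the settings tried). The brain fatty acid binding protein Fabp7 read 33.99 and 33.5 against 483 and 417, at least 5.93-fold lower, and Elovl4 and Elovl2, which lengthen polyunsaturated fatty acids, were lower too, Elovl4 at least 5.33-fold lower and Elovl2 with a difference of -2.74 ± 0.18. Acsl5 (1.60 ± 0.12) and the fatty acid receptor Cd36 (1.42 ± 0.19) were higher. For fatty acid oxidation, 9 of 40 tested members were higher (3 without any 1 array) and 5 were lower (3 without any 1 array), with Crat at 1.84 ± 0.26 and the brain isoform Cpt1c at -1.97 ± 0.13. For glutathione, peroxide and xenobiotic enzymes, 16 of 61 tested members were higher (5, 6, 4 and 4 with each array left out in turn) and 11 were lower (7, 5, 6 and 4 with each array left out in turn). Aldh1a2, which makes retinoic acid, read 208 and 162 against 3202 and 3091, a difference of -3.94 ± 0.18, and with the fall of Crabp2 above 2 genes of retinoic acid supply were lower. The haem-degrading enzymes Blvrb (2.50 ± 0.42, no longer called without Flk1-positive array 1, WT array 1 or WT array 2), Blvra (1.51 ± 0.14) and Hmox1 (1.34 ± 0.19, a further member) were higher, next to higher erythroid markers, whose part was not tested.

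**Figure D5:**
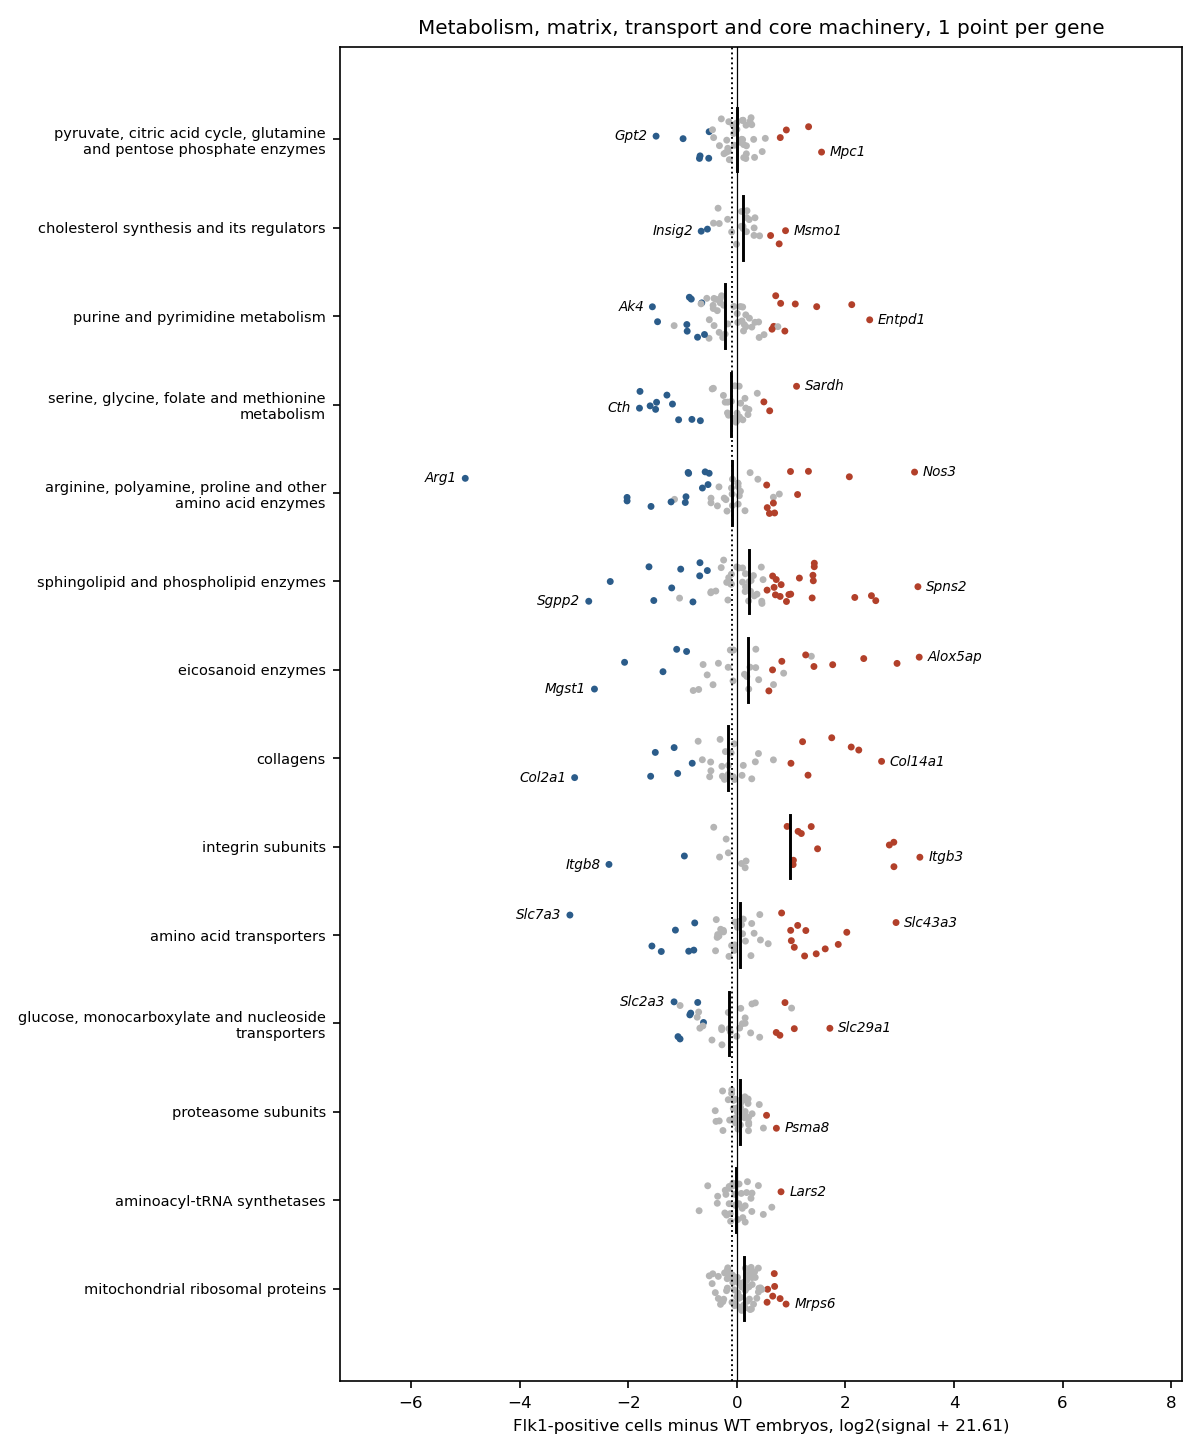
Difference between Flk1-positive cells and WT embryos, log2(signal + 21.61), for each tested gene of 14 lists of metabolism, matrix, transport and core machinery; red and blue points were called higher and lower, grey points have no call, black bars are list medians and the dotted line is the median of all genes, -0.08. Integrins have the median farthest to the right, 0.98, while proteasome, tRNA synthetase and mitochondrial ribosome genes cluster around the median of all genes.

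Integrins, the receptors that bind matrix, were the list with the highest share of rises. For integrin subunits, 11 of 20 tested members were higher and 2 were lower (2, 1, 1 and 1 with each array left out in turn), or 55% higher against 12.2% of all genes, with a median of 0.98. Itgb3, which pairs with the alpha chains of vitronectin and fibrinogen receptors, read 259 and 219 against 3.49 and 3.53, at least 3.28-fold higher. Itga1, a collagen receptor chain, read 474 and 509 against 31.3 and 68.4, at least 6.46-fold higher. The leukocyte chain Itgb2 read 209 and 170.3 against 5.19 and 8.40, at least 2.65-fold higher. Among further members, Itga2b (2.81 ± 0.18) of platelets, Itga3 (1.49 ± 0.17), the fibronectin receptor chain Itga5 (1.37 ± 0.16) and Itga6 (1.19 ± 0.12) were higher. Itgav had no call at 1805 and 1659.5 against 1632 and 1628. Itgb8, which activates TGF-beta, read 69.3 and 105 against 509.5 and 546, a difference of -2.35 ± 0.27, and Itgb5 was lower (-0.97 ± 0.17, no longer called without Flk1-positive array 2, WT array 1 or WT array 2).

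Collagens rose about as often as they fell. Of the collagens, 7 of 35 tested members were higher and 6 were lower (5, 3, 3 and 3 with each array left out in turn), with a median of -0.15 (-0.21 to 0 over the settings tried). Col4a2 of basement membranes read 5790.1 and 6104 against 1293 and 1436, a difference of 2.11 ± 0.15. Its partner Col4a1, a further member, read 18621 and 19486 against 5828 and 5485, a difference of 1.75 ± 0.12. Col15a1 (at least 3.87-fold higher) and Col14a1 (2.67 ± 0.13) were higher. Col2a1, the collagen of cartilage and notochord, read 122.7 and 94.6 against 986 and 1024, a difference of -2.99 ± 0.20, and Col9a1 was -1.59 ± 0.14. Enzymes that fold, crosslink or process collagen rose more often than genes at large: 13 of 31 tested members were higher (9, 8, 8 and 9 with each array left out in turn) and 5 were lower (4, 5, 4 and 3 with each array left out in turn), with a median of 0.50. Tll1, a procollagen protease, read 312 and 249.6 against 8.61 and 23.2, at least 3.79-fold higher. The transglutaminase Tgm2 read 2466 and 2337 against 391 and 339.9, a difference of 2.65 ± 0.26. Of the laminin chains, 1 of 9 tested members was higher (1, 1, 1 and 2 with each array left out in turn) and 2 were lower (1, 1, 0 and 1 with each array left out in turn); WT array 2 left out adds a member to the rises. The beta and gamma chains Lamb1 (4432 and 4022 against 3087 and 3524) and Lamc1 (1228 and 1221 against 1135 and 1087) had no call.

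Other matrix genes and the enzymes that cut or decorate them moved both ways. For matrix glycoproteins and proteoglycans, 27 of 104 tested members were higher and 35 were lower, with a median of 0.05 (-0.24 to 0.09 over the settings tried). Esm1, a proteoglycan of sprouting endothelium, read 1218 and 1114 against 68.98 and 39.1, at least 14.9-fold higher, and Mmrn2 and Mmrn1, multimerins of endothelium and platelets, were higher, Mmrn2 by 3.95 ± 0.15 and Mmrn1 at least 9.2-fold higher. Ntn1, the guidance cue netrin, read 77.8 and 21.6 against 1426 and 1576, at least 19.2-fold lower, and Thbs4 and Frem2 were at least 5.08-fold lower and at least 10.8-fold lower. The tested glypicans and syndecans, heparan sulfate proteoglycans of the cell surface and here further genes, were lower except for Sdc3, which had no call. The differences were -2.02 ± 0.14 for Gpc1, -1.68 ± 0.27 (no longer called without WT array 1 or WT array 2) for Gpc2, -1.56 ± 0.13 for Gpc3, -1.57 ± 0.20 for Gpc4, -1.52 ± 0.16 for Gpc6, -1.01 ± 0.14 for Sdc1, -1.03 ± 0.13 for Sdc2 and -1.66 ± 0.20 for Sdc4. For enzymes of heparan sulfate, chondroitin sulfate and hyaluronan, 8 of 56 tested members were higher (6, 6, 6 and 5 with each array left out in turn) and 17 were lower (10, 11, 8 and 4 with each array left out in turn). Csgalnact1, which starts chondroitin chains, read 1171 and 1221 against 66.7 and 67.5, a difference of 3.78 ± 0.17. The hyaluronidase Cemip2 read 5787 and 5374 against 1548 and 1622, a difference of 1.80 ± 0.13. Sulf1, which removes sulfate from heparan sulfate, read 185 and 167 against 1134 and 1178, a difference of -2.57 ± 0.17. For matrix metalloproteases, ADAM and ADAMTS proteases and TIMPs, 14 of 49 tested members were higher (12, 9, 9 and 9 with each array left out in turn) and 7 were lower (4, 5, 2 and 3 with each array left out in turn). Adam12 read 2419.8 and 2208 against 193 and 186, a difference of 3.47 ± 0.13. The inhibitor Timp3 read 1595 and 1366 against 139.6 and 211, a difference of 2.95 ± 0.21. Adam15 read 1325 and 1382 against 202 and 247, a difference of 2.49 ± 0.15. Adamts20 was -2.38 ± 0.15. Among serpins, cathepsins and their relatives, 13 of 44 tested members were higher (8, 8, 9 and 5 with each array left out in turn) and 3 were lower (1, 2, 1 and 3 with each array left out in turn). Ctla2a, an inhibitor of cathepsins, read 5492 and 6371 against 307 and 233, a difference of 4.36 ± 0.30. The coagulation inhibitor Tfpi read 5389.6 and 5641 against 952 and 1023, a difference of 2.46 ± 0.17. Plat, the tissue plasminogen activator, read 259 and 164 against 969 and 953, a difference of -2.11 ± 0.23.

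Growth factors and morphogens fell more often than they rose. Of the ligands in that list, 19 of 129 tested members were higher and 44 were lower, with a median of -0.42 (-0.66 to -0.09 over the settings tried). Igf1 read 4149 and 4379.8 against 269 and 218, a difference of 4.02 ± 0.33. Tgfb1 read 3315 and 3345 against 222 and 269, a difference of 3.66 ± 0.18. The Notch ligand Dll4 of arterial endothelium read 966 and 1162 against 64.7 and 96.4, a difference of 3.42 ± 0.21. Of further ligands, Pdgfb, which recruits mural cells, read 1029.6 and 982 against 83.9 and 78.3, a difference of 3.32 ± 0.22, whereas Pdgfa read 246 and 227 against 1349 and 1139.8, a difference of -2.29 ± 0.24. The Notch ligands Dll1 (-2.13 ± 0.16) and Dll3 (-2.92 ± 0.18) were lower where Dll4 was higher. Ptn, a heparin-binding growth factor of neural tissue, read 462 and 369 against 8705 and 8215, a difference of -4.28 ± 0.17. Shh read 113 and 87.7 against 1441 and 1442, a difference of -3.59 ± 0.16. Apela, a ligand of the apelin receptor, was -3.43 ± 0.21, while its fellow ligand Apln (1.34 ± 0.19) and the receptor Aplnr (1.34 ± 0.19), both further genes, were higher. Of the further Wnt ligands, Wnt3a was at least 4.5-fold lower, Wnt5b was at least 7.05-fold lower and Wnt5a differed by -2.44 ± 0.16. For chemokines, interleukins and other cytokines, 8 of 61 tested members were higher (4, 7, 5 and 3 with each array left out in turn) and 4 were lower: Il16 read 217 and 243 against 10.99 and 13.7, at least 3.17-fold higher. Il15 read 212 and 332 against 29.00 and 38.3, at least 3.62-fold higher. Cxcl12 read 119.8 and 87.5 against 538 and 611, a difference of -2.26 ± 0.20. Pf4, the platelet factor, was 3.11 ± 0.46 (no longer called without WT array 2).

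Transporter lists held calls in both directions, and several lay near the shares of all genes, 12.2% higher and 17.5% lower. The shares higher and lower were 14.3% and 20% for glucose, monocarboxylate and nucleoside transporters and 9.38% and 17.2% for metal and other ion carriers. They were 12.9% and 12.9% for organic ion, vitamin and lipid carriers and 16.3% and 14% for ABC transporters. Amino acid transporters had 27.3% and 15.9%, and mitochondrial and nucleotide-sugar carriers 17.6% and 10.3%. For amino acid transporters, 12 of 44 tested members were higher and 7 were lower (5, 4, 2 and 2 with each array left out in turn), with a median of 0.06 (-0.02 to 0.13 over the settings tried). Slc43a3 read 2218 and 2384 against 304 and 262, a difference of 2.93 ± 0.14. Slc38a5, which carries glutamine and glycine, read 461 and 304 against 88.96 and 64.1, a difference of 2.03 ± 0.28. The cationic amino acid transporters were split: the further member Slc7a1 read 1246.4 and 1308 against 379 and 418, a difference of 1.63 ± 0.14. Slc7a3 read 64.02 and 46.4 against 599 and 644, at least 8.1-fold lower. The large neutral amino acid carrier Slc7a5 had no call at 716 and 708 against 951 and 879.9. For glucose, monocarboxylate and nucleoside transporters, 5 of 35 tested members were higher (4, 2, 3 and 2 with each array left out in turn) and 7 were lower (4, 2, 2 and 2 with each array left out in turn). The glucose transporter Slc2a3, among the brightest probe sets that fell, read 10035 and 10671 against 23422 and 22738, a difference of -1.16 ± 0.14. The further member Slc2a1, the other main glucose transporter, read 14602 and 15048 against 22262 and 23111, a difference of -0.61 ± 0.12 (no longer called without any 1 of the 4 arrays compared). The nucleoside transporter Slc29a1 read 2151 and 2176 against 643 and 645, a difference of 1.71 ± 0.17. For metal, bicarbonate and other ion carriers, 6 of 64 tested members were higher (6, 4, 4 and 3 with each array left out in turn) and 11 were lower (4, 5, 5 and 4 with each array left out in turn), and for organic ion, vitamin and lipid carriers, 8 of 62 tested members were higher (6, 5, 5 and 7 with each array left out in turn) and 8 were lower (8, 6, 5 and 5 with each array left out in turn). The band 3 anion exchanger of red cells, Slc4a1, was at least 1.26-fold higher, and the zinc and manganese carrier Slc39a8, a further member, differed by 1.20 ± 0.17. For mitochondrial and nucleotide-sugar carriers, 12 of 68 tested members were higher (3, 4, 5 and 3 with each array left out in turn) and 7 were lower (4, 4, 2 and 5 with each array left out in turn), and for ABC transporters, 7 of 43 tested members were higher (4, 5, 4 and 4 with each array left out in turn) and 6 were lower (3, 4, 4 and 2 with each array left out in turn). Abca1, which exports cholesterol, read 1825 and 1611 against 493 and 528, a difference of 1.71 ± 0.14, and Abcc9, a subunit of ATP-sensitive potassium channels, was at least 1.77-fold higher.

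Ion channels changed about as often as genes at large. In that list 24 of 164 tested members were higher and 22 were lower (25, 19, 12 and 9 with each array left out in turn), or 14.6% and 13.4% against 12.2% and 17.5%. Kcne3, an accessory chain of potassium channels, read 1593 and 1377 against 146 and 117, a difference of 3.31 ± 0.19. Kcnn4, the calcium-activated potassium channel of red and white cells, read 244 and 196 against 8.60 and 4.67, at least 3.03-fold higher. The leak channel Kcnk6 read 3370.2 and 3276 against 378 and 365, a difference of 3.09 ± 0.14. Of further members, Piezo1, a channel opened by mechanical force such as flow, read 2799 and 2325 against 1001 and 955, a difference of 1.36 ± 0.16. Orai1, the store-operated calcium channel, read 1664 and 1643 against 521 and 434, a difference of 1.75 ± 0.22. The leak channel Kcnk1 read 28.4 and 38.6 against 872 and 815, at least 10.9-fold lower, and the neuronal calcium channel Cacna1b was at least 3.08-fold lower. Of aquaporins and connexins, 3 of 17 tested members were higher and 5 were lower (4, 4, 2 and 3 with each array left out in turn). Gja4, the connexin 37 of arteries, read 1861 and 1898 against 223 and 188, a difference of 3.07 ± 0.16. The water channel Aqp1 of endothelium and red cells read 262 and 180.1 against 50.5 and 29.1, at least 3.01-fold higher, and Aqp8 was at least 6.28-fold higher. Among ATPase pumps, 9 of 58 tested members were higher (4, 5, 4 and 4 with each array left out in turn) and 7 were lower (7, 6, 3 and 5 with each array left out in turn). Fxyd5, a regulator of the sodium pump, read 1311 and 1330.3 against 102 and 72.3, a difference of 3.64 ± 0.18, whereas Fxyd3 was at least 1.42-fold lower and Atp1b1, a sodium pump chain, read 332 and 218 against 926 and 1000.5, a difference of -1.76 ± 0.21.

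Small GTPases and their regulators act in cell adhesion, growth signalling and vesicle traffic. Rises made up 30.6% of the Ras and Rap list, against 12.2% of all genes. In the Rab list the share, 18.2%, was closer to that of all genes. For Ras and Rap GTPases, 19 of 62 tested members were higher (14, 13, 12 and 11 with each array left out in turn) and 11 were lower (11, 8, 7 and 6 with each array left out in turn), with a median of 0.04 (-0.07 to 0.09 over the settings tried). Rasip1, needed for vessel lumens, read 3727 and 3855 against 313 and 260.2, a difference of 3.63 ± 0.16. The Rap activator Rapgef3 read 489 and 513 against 61.1 and 73.3, a difference of 2.56 ± 0.18. Of Rab GTPases, 10 of 55 tested members were higher (6, 5, 6 and 7 with each array left out in turn) and 8 were lower (7, 5, 4 and 4 with each array left out in turn). Of heterotrimeric G proteins and RGS proteins, 12 of 46 tested members were higher and 10 were lower (6, 5, 5 and 5 with each array left out in turn), with Gng11 at 4471 and 4717 against 405 and 343, a difference of 3.55 ± 0.15 and Gng3 at -2.15 ± 0.24. Of cyclic nucleotide enzymes and kinases, 8 of 57 tested members were higher and 10 were lower (5, 3, 4 and 2 with each array left out in turn), and the adenylyl cyclases Adcy4 and Adcy1 went apart. Adcy4 read 682 and 672 against 68.4 and 57.3, a difference of 3.05 ± 0.15. Adcy1 read 59.5 and 40.8 against 259.7 and 197, at least 3.12-fold lower. Of protein tyrosine and dual-specificity phosphatases, 15 of 64 tested members were higher and 12 were lower (10, 10, 9 and 7 with each array left out in turn), with a median of 0.21 (0.03 to 0.25 over the settings tried). Ptprb, the VE-PTP that restrains Tek, read 1246.4 and 1049 against 98.9 and 108, a difference of 3.22 ± 0.14, and Ptprz1, a phosphatase of neural progenitors, was at least 6.61-fold lower.

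The cytoskeletal lists fell more often than they rose. Of keratins and other intermediate filaments, 3 of 39 tested members were higher (1, 2, 1 and 1 with each array left out in turn) and 11 were lower. Vim, the vimentin of mesenchyme and endothelium, read 27111 and 28202 against 5012 and 5050.3, a difference of 2.45 ± 0.14, and Krt18 and Krt8 of simple epithelia were lower. Krt18 read 898 and 1004 against 8395 and 7836, a difference of -3.07 ± 0.15. The further member Krt8 read 1345 and 1373 against 7074 and 6550.3, a difference of -2.31 ± 0.13. Of tubulins, stathmins and kinesins, 2 of 73 tested members were higher and 17 were lower (10 without any 1 array), with a median of -0.18. Tubb1, the tubulin of platelets, read 354 and 346 against 43.9 and 39.03, at least 4.68-fold higher. Tubb6 read 7594 and 7653 against 1793 and 1782, a difference of 2.08 ± 0.13, while the neuronal genes Tubb3 (at least 4.33-fold lower) and Stmn2 (-3.21 ± 0.13) were lower. Tubb5 had no call at 21736 and 22271 against 20763 and 20336. Of actins, myosins and tropomyosins, 11 of 69 tested members were higher and 23 were lower (20, 19, 14 and 16 with each array left out in turn). Heart muscle genes led the falls, with Myh6 at least 14.1-fold lower, and heart muscle markers as a group were lower, as given above. Myo7a, an unconventional myosin, read 1633 and 1663 against 125 and 151, a difference of 3.39 ± 0.14. Myo1c read 5782 and 5853 against 1181 and 1208, a difference of 2.26 ± 0.12. The actin gene Actb had no call at 34340.0 and 36133 against 28971 and 29315.

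Lists of antigen presentation, interferon response and complement held calls in both directions. In that order, 13.8%, 16.7% and 21.4% of members were higher, against 12.2% of all genes. Falls made up 10.3%, 16.7% and 7.14%, against 17.5% of all genes. For class I and class II MHC and antigen processing, 4 of 29 tested members were higher (1, 2, 1 and 1 with each array left out in turn) and 3 were lower (2, 3, 2 and 1 with each array left out in turn), with B2m, the light chain of class I molecules, at 3063 and 3033 against 1334 and 1224, a difference of 1.24 ± 0.16. For interferon-response genes, 7 of 42 tested members were higher (5, 6, 6 and 4 with each array left out in turn) and 7 were lower (7, 5, 5 and 4 with each array left out in turn), with no common direction and a median of -0.04 (-0.11 to 0 over the settings tried): Ifi35 was at least 7.83-fold higher and Rsad2 at least 3.95-fold higher, while Rnf213 (-2.01 ± 0.17) and Ifit2 (-1.69 ± 0.20) were lower. For complement components and regulators, 6 of 28 tested members were higher and 2 were lower (2, 1, 1 and 2 with each array left out in turn). Cd93, a lectin-like receptor of endothelium and myeloid cells, read 4743 and 5001 against 198 and 207, a difference of 4.45 ± 0.15. Cd59a, which blocks the membrane attack complex, read 2796 and 3153 against 629 and 544, a difference of 2.30 ± 0.17.

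Core machinery of the cell stayed near the embryo level. Of proteasome subunits, 2 of 41 tested members were higher (0, 0, 1 and 0 with each array left out in turn) and 0 were lower, and no member was called higher without either Flk1 KO array, with a median of 0.07 (0 to 0.11 over the settings tried). Of aminoacyl-tRNA synthetases, 1 of 35 tested members was higher (0 without any 1 array) and 0 were lower, with a median of -0.02 (-0.04 to 0.03 over the settings tried), and of mitochondrial ribosomal proteins, 7 of 73 tested members were higher (0, 0, 1 and 0 with each array left out in turn) and 0 were lower, with a median of 0.13 (-0.01 to 0.18 over the settings tried). The shares of calls in these lists lay below the 12.2% and 17.5% of all genes. Of the RNA splicing factors tested, 7 were higher and 17 were lower (11, 12, 9 and 9 with each array left out in turn), or 5.69% and 13.8%, shares that both lie below those of all genes, with a median of -0.20. Esrp1, which sets epithelial splicing, read 32.2 and 39.96 against 1208 and 1342, at least 16.3-fold lower. Its relative Esrp2, a further member, read 14.97 and 28.8 against 122 and 116, at least 1.77-fold lower. All 3 muscleblind genes, regulators of alternative splicing, were higher. Mbnl3 read 1584 and 1494 against 263 and 278, a difference of 2.42 ± 0.21. Mbnl2 read 1777 and 1839.5 against 472 and 403, a difference of 1.998 ± 0.14, and the further member Mbnl1 differed by 1.70 ± 0.13. The further paralogues Ptbp3 (1.23 ± 0.12) and Ptbp2 (-2.05 ± 0.14) moved in opposite directions, as did Nova2 (1.67 ± 0.21) and Nova1 (-0.90 ± 0.15, no longer called without any 1 of the 4 arrays compared).

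Flk1 KO embryos lack the receptor for which the cells are named. Their values for some genes described above, given as examples, are set beside those of the main comparison. Both comparisons use the same 2 WT arrays, so no measure of likeness between them is given. Erg, higher in the cells, read 6.76 and 2.25 in the Flk1 KO embryos against 161 and 152 in WT embryos (limma adjusted p = 0.0232). Flt4, at 4124 and 4374 against 532 and 506 in the main comparison, read 67.8 and 75.3 in the Flk1 KO, a difference of -2.54 from WT embryos (limma adjusted p = 0.0232). The channel gene Kcnk6 read 105 and 88.2, a difference of -1.74 (limma adjusted p = 0.0485), and Mrc1 read 35.9 and 29.1 (limma adjusted p = 0.0571). These arrays lay below both WT arrays in each of the 4 genes. Other genes that were higher in the cells had Flk1 KO values nearer to those of WT embryos: Spns2 read 171 and 122.8 in the Flk1 KO, Slc43a3 read 232 and 219, and Klf1 read 55.1 and 19.3. Of the genes lower in the cells, Arg1 read 3119 and 3102 in the Flk1 KO against 2766 and 2892 in WT embryos, and Slc2a3 read 24238 and 21278 against 23422 and 22738. Limma adjusted p-values for these 5 genes were 0.631 or above. A p that misses the threshold does not show that the values are alike.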

How the data were processed

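The authors hybridised RNA of Flk1-positive cells, WT embryos and Flk1 KO embryos, 2 samples each, to Affymetrix mouse arrays and deposited 1 signal per probe set and array on a linear scale. From the values, the authors had scaled the signals of each array so that the mean without the highest and lowest 2% is 500, by a program not given in the sources used here. Here 64 control probe sets were left out, log2(signal + 21.61) was taken, the constant being the 25th percentile of all values, and the 34621 probe sets with a mean at or above that percentile were tested. limma 3.58.1 in R 4.3.3 fitted a group model to all 6 arrays, with 3 residual degrees of freedom, and p-values were adjusted over all tested probe sets by Benjamini-Hochberg at 0.05. Tables and plots were made in Python 3.11.15 with pandas 2.3.3 and matplotlib 3.10.9.

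Gene names came from the platform annotation, with 34958 probe sets of 1 symbol, 932 of several and 9211 of none, and only the first kind was named. Of these, 34754 matched the RefSeq gene table and 0 names changed. The background level was taken from 77 probe sets of olfactory and vomeronasal receptors, as their 95th percentile averaged over the arrays. The named genes are Kdr, then up to 3 rises and 3 falls of each of 64 gene lists and the 30 largest rises and falls of all genes. Each needed a call, arrays that do not overlap between the groups and a brighter mean above background. Not all of them are described in the text. Clone names were left out, and 1 of the lists is not reported here. The members and lists were chosen with earlier results of these data known. Alternatives covered the constant, the filter, the scale between arrays, the prior, the arrays fitted, the replicate number, a fold limit, the probe set per gene and each array left out. Precision is limited by the number of arrays.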

Additional observations from a re-analysis of the deposited data

How the results depend on the processing

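With 2 arrays per group, the counts of calls depended on each of the 4 arrays compared. Leaving out 1 array at a time gave 2091 to 3978 probe sets higher and 2144 to 4781 lower, against 3880 and 4794, the high ends being those without either Flk1 KO array. In such fits the lone array of a group is assumed to vary like the others. Of 373 named genes, 59 lost the call in at least 1 of these fits and none changed sign. limma's treat test against a 2-fold limit called 739 higher and 773 lower. All other settings stayed within 1.5 times, from 3434 to 4859 higher and from 4147 to 6279 lower, and those ends came from the replicate block and the intensity trend. The replicate numbers do not pair the samples, since deviations of same-numbered arrays of the cells and of WT embryos correlated at 0.0049; the replicate block left 3434 higher and 4147 lower. With the median over all probe sets of a gene, Mrpl17 differed by -0.02353 in place of 0.70, the 1 reversal among the named genes over these settings, and the cause was not tested. Setting group means below background to that level moved 36 of 64 list medians beyond their spread. Below background no order of values can be read.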

Other observations

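A few genes had probe sets that were called in opposite directions, so that the sign depends on which probe set stands for the gene. Camta1 encodes a transcription activator that binds calmodulin. Its brightest probe set read 85.9 and 72.8 on the arrays of the cells against 405 and 357 in WT embryos, a difference of -1.997 ± 0.25, and another differed by -2.27 ± 0.18. The remaining called probe set read 89.3 and 113 against 6.72 and 11.01, a difference of 2.01 ± 0.17 (limma adjusted p of 0.0043 or below for all of them). None of these calls was lost on leaving out an array. The antisense gene Rab10os read 365 and 349 against 736 and 795 on its brightest probe set, a difference of -1.06 ± 0.15. Its other probe set read 109.96 and 120.8 against 39.5 and 40.15, a difference of 1.16 ± 0.12 (limma adjusted p of 0.0062 or below), and both calls held. The ceramidase gene Acer2 was higher on its brightest probe set and read 34.2 and 27.2 against 107.9 and 73.8 on the other, a difference of -1.09 ± 0.21 (limma adjusted p = 0.017), a call that was lost without either Flk1-positive array or WT array 1.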
